A study of Mus musculus with 8 samples.

Results

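The interleukin-6 (IL-6) family and its receptors were followed through 10 genes: the ligands Il6, Il11, Lif and Clcf1, the receptor chains Il6ra, Il6st, Osmr, Lifr and Il11ra1, and the feedback inhibitor Socs3. Members were all non-control probes whose gene name in the scanner files was one of these, which gave 15 of the 41174 probes on the array and 9 of the 10 genes. No probe carried the name Lif, so the level of that gene was not analysed here and only its promoter is described. All 15 probes were among the 33060 bright enough to be tested, 14 of them well above background on all 8 arrays in the sample channel and 1 of the 4 Lifr probes on 6 arrays.

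Cytokines of this family bind a receptor specific to the ligand and then recruit the shared signalling chain encoded by Il6st, which activates JAK kinases and the transcription factor STAT3. STAT3 induces Socs3, which binds the receptor complex and shuts the signal off. In bone, osteoblasts and stromal cells are a source of IL-6, and the cytokine is known for promoting the formation of osteoclasts, the cells that resorb bone.

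Messenger RNA was measured in MC3T3-E1, a line of osteoblasts from mouse skull bone, kept in co-culture with tumour cells. The groups were co-cultures with Jagged1-overexpressing tumour cells in MRK-003, with Jagged1-overexpressing tumour cells in DMSO, with vector control tumour cells in MRK-003 and with vector control tumour cells in DMSO, each with 2 biological replicates and 1 array per replicate. Jagged1 is a ligand of Notch receptors, MRK-003 inhibits gamma-secretase, the protease that frees the active part of Notch, and DMSO is its solvent. Which tumour line was used, and how osteoblasts were parted from it, is not given in the sources used here, and in RNA from a co-culture more cells of a type and more RNA per cell cannot be told apart. Each level is a log2 ratio of the co-culture (Cy3) to one commercial mouse reference RNA (Cy5), so a level compares a gene with its own level in the reference and not with another gene.

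The replicate 1 arrays of all groups lay on 1 slide and the replicate 2 arrays on another, and the share of spots with Cy3 signal clear of background ran from 86.0% to 89.4% on the first slide and from 71.4% to 78.6% on the second. Of all 33060 tested probes, 0.148% were called for Jagged1 against vector in DMSO and 1.62% for MRK-003 against DMSO with Jagged1 cells. Of 6 Notch targets, 4 were called higher with Jagged1 than with vector cells in DMSO. Among the Jagged1 co-cultures, 5 of the 6 were called lower in MRK-003 than in DMSO. Nrarp, called in both comparisons, was well above background in Cy3 on only 4 of the 8 arrays. The largest change was that of Hey1, at 3.76 on the log2 scale for Jagged1 in DMSO (limma adjusted p = 0.00362) and -5.28 for MRK-003 (adjusted p = 5.38e-04), whereas Hes1 (0.67, adjusted p = 0.587) and Heyl (0.31, adjusted p = 0.438) did not pass for Jagged1 in DMSO. The 11 measured osteoblast markers had median log2 ratios to the reference of 0.89 to 1.54 on the 8 arrays. Those of 14 macrophage and other leukocyte markers were -2.80 to -2.42, and those of 11 epithelial markers -2.40 to -1.49. Such medians do not give the share of a cell type. Of the osteoblast markers, Alpl (-2.10 to -0.02) and Phex (-3.84 to -2.95) were below the reference on all 8 arrays. Runx2 and Bglap were below it on some, and the others were above it on all.

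On 3 of the 4 Jagged1 arrays, both in DMSO and replicate 2 in MRK-003, 3 to 11 spots had an extreme local background, and the Il6 and Clcf1 calls come from the comparison of these 4 arrays. The local background of every array was therefore given an upper limit before correction, a step that was not planned and was chosen after seeing the data. With the limit 2 member probes passed for MRK-003 with Jagged1 cells, and with no limit, as planned, 0 did. The count was also 2 where the local background of single spots was not used, both with the array median of the local background in its place and with no background subtraction. For Jagged1 against vector in DMSO, 2 probes of the whole array were called higher with no limit. The 4 Notch targets called higher there therefore did not all pass with no limit.

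The results turned on Il6 and, less firmly, Clcf1, set against the feedback gene Socs3, so the letters that bear on these 3 are shown first. The promoter of Il6 (chr5:30012864-30013163, build GRCm38.p6, plus strand) and that of Socs3 (chr11:117969317-117969616, GRCm38.p6, minus strand) are given from 250 bases before to 50 bases after the start of transcription, from RefSeq. In Il6, capitals mark a match to the NF-kappaB motif and, overlapping it on the opposite strand, the core motif of RBPJ (TGGGAA), the DNA-binding partner of Notch. In Socs3, capitals mark a STAT motif (TTCNNNGAA). Clcf1 had no entry among the promoters, and its array probe is given instead (chr19:4117286-4117345, build mm7, plus strand).
Il6: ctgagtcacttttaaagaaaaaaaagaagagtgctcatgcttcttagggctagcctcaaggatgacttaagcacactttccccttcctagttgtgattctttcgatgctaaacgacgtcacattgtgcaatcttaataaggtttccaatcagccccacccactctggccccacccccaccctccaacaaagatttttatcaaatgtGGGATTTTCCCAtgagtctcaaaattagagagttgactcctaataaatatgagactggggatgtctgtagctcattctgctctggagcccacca
Socs3: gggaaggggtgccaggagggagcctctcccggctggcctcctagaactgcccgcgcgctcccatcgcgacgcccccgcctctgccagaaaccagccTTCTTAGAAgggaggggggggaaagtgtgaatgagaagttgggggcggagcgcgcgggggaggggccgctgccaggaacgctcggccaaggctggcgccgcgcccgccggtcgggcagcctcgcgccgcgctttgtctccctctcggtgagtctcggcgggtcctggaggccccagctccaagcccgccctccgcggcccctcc
Clcf1 probe: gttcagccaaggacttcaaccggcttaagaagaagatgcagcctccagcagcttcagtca

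In the Il6 promoter the NF-kappaB match began 44 bases before the start and the RBPJ match 38 bases before it, with a C/EBP match (TTNNGNAA) 128 bases and an AP-1 match (TGANTCA) 249 bases before. In human cells RBPJ has been described as binding over the NF-kappaB site of the IL6 promoter. On either strand, 25.6% of 32851 RefSeq mouse promoters of the same length held the RBPJ core, 8.46% the NF-kappaB motif, 40.7% the C/EBP motif and 7.81% the AP-1 motif, and 0.584% held an RBPJ core that overlapped an NF-kappaB match. Among the 9 member genes with a promoter (12 start sites), Il6, Il6ra, Il11ra1 and Lif held the RBPJ core, Il6 and Lif the NF-kappaB motif, Il6 and Il6ra the C/EBP motif, and Il6, Il11, Lif and Osmr the AP-1 motif. The Socs3 match, 154 bases before the start, was the only STAT match among them, against 8.3% of all promoters. These matches describe letters and were not tested for binding.

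Il6, the cytokine that gives the family its name, was highest with Jagged1 tumour cells in DMSO, and MRK-003 lowered it there. On build mm7 its probe lay on chromosome 5 at 29052734 to 29052793. Its log2 ratios to the reference were 1.19 and 1.43 with Jagged1 cells in MRK-003, 4.01 and 3.62 with Jagged1 cells in DMSO, 0.78 and 1.41 with vector cells in MRK-003, and 2.44 and 1.72 with vector cells in DMSO. Both Jagged1 DMSO arrays were above all others, the vector DMSO arrays came next, and the 4 MRK-003 arrays were the lowest and overlapped between tumour cells.

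In Jagged1 co-cultures, Il6 fell by 2.50 ± 0.30 on the log2 scale with MRK-003, a 5.65-fold lower level (SE, n = 2 per group, limma adjusted p = 0.0183). The means were 1.31 ± 0.17 in MRK-003 and 3.81 ± 0.28 in DMSO (SD, n = 2 each), and the difference was -2.81 on slide 1 and -2.18 on slide 2. Leaving out any 1 of these 4 arrays gave differences of -2.69 to -2.30 that no longer passed (adjusted p = 0.0884 to 0.171), and with no upper limit on the local background the difference was -2.28 (adjusted p = 0.151).

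In DMSO, the Il6 level was 1.73 ± 0.30 higher on the log2 scale with Jagged1 than with vector cells, a 3.31-fold difference that did not pass (adjusted p = 0.15). It did pass with the slide, which carries the replicate number, as a block (adjusted p = 0.03). The means were 3.81 ± 0.28 with Jagged1 cells and 2.08 ± 0.51 with vector cells (SD, n = 2 each), and the difference was 1.56 on slide 1 and 1.89 on slide 2. With no upper limit on the local background it was 1.12 (adjusted p = 0.608). With 1 array left out it lay between 1.37, without the replicate 2 vector DMSO array, and 2.09, without the replicate 1 vector DMSO array (adjusted p = 0.151 to 0.896 over the 8 omissions).

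In MRK-003 the Il6 levels with Jagged1 and vector cells overlapped, and their difference was 0.22 ± 0.30 (95% interval -0.50 to 0.94). In vector co-cultures the difference between MRK-003 and DMSO was -0.99 ± 0.30 and did not pass (adjusted p = 1), with -1.66 on slide 1 and -0.32 on slide 2. The Jagged1 effect in DMSO exceeded that in MRK-003 by 1.51 ± 0.43 (95% interval 0.49 to 2.53), which had an unadjusted p of 0.0102 and did not pass over all probes (adjusted p = 0.999, and 0.237 with the block). The same number is how much larger the MRK-003 fall was with Jagged1 than with vector cells, so that difference was not shown.

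**Figure D1:**
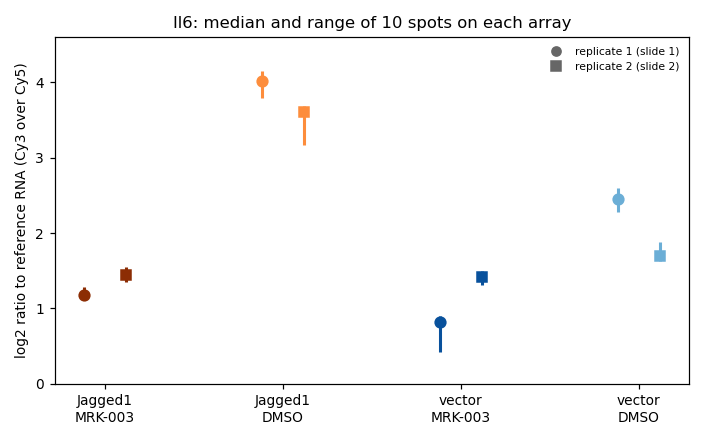
Il6 level on each of the 8 arrays, as the log2 ratio of the co-culture to the reference RNA, with groups on the horizontal axis. Points are medians and bars the range of all 10 spots printed with this probe, outlier spots included. Both Jagged1 DMSO arrays, with medians of 4.02 and 3.61, stood above the vector DMSO arrays at 2.45 and 1.70.

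The array carried 10 spots of the Il6 probe, which allowed the measurement error within an array to be seen. The SD over these spots was 0.06 to 0.15 on the log2 scale, whereas the 2 vector DMSO arrays differed by 0.72. Spot values include 1 spot marked as an outlier on Jagged1 DMSO replicate 2 and 1 on vector MRK-003 replicate 1, which the levels left out. The spots of either Jagged1 DMSO array did not overlap those of any other group, the lowest being 3.17. Spots of 1 array share their RNA and were counted as 1 value.

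Markers of other cells are given beside the Il6 result. Of the 11 measured epithelial markers, 10 were higher with Jagged1 than with vector cells in DMSO, with a median difference of 0.17, and 10 were lower in MRK-003 than in DMSO with Jagged1 cells, with a median of -0.11. None passed. Cy3 levels were summed after background correction with an offset of 50 and normalization within and between arrays. These sums are therefore not raw signals. For the epithelial markers the sum was 4992 and 4815 with Jagged1 cells in MRK-003 and 5862 and 5533 with Jagged1 cells in DMSO. With vector cells it was 5461 and 4819 in MRK-003 and 4596 and 5191 in DMSO. The 14 macrophage and other leukocyte markers had median differences of -0.01 in both comparisons, and sums of 7524 to 8257 over the 8 arrays. Their part in the Il6 result was not tested.

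Clcf1 encodes a cytokine that acts through the CNTF receptor. Its log2 ratios were -0.24 and -0.48 with Jagged1 cells in MRK-003, 0.68 and 0.66 with Jagged1 cells in DMSO, -0.10 and -0.51 with vector cells in MRK-003, and 0.18 and 0.07 with vector cells in DMSO. As for Il6, the Jagged1 DMSO arrays were the highest, the vector DMSO arrays next, and the 4 MRK-003 arrays lowest and overlapping.

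With MRK-003 in Jagged1 co-cultures, Clcf1 fell by 1.03 ± 0.16 on the log2 scale, a 2.04-fold lower level (SE, n = 2 per group, limma adjusted p = 0.0372), with -0.92 on slide 1 and -1.14 on slide 2. The call was lost with the scanner software's processed signals (-1.24, adjusted p = 0.0964), with median centring (adjusted p = 0.0735), in Cy3 alone (adjusted p = 0.159), in the authors' deposited table (adjusted p = 0.0901) and with no upper limit on the background (-0.69, adjusted p = 0.255). It was also lost without either vector DMSO array (adjusted p = 0.076) and without any 1 of the 4 arrays compared (-1.15 to -0.91, adjusted p = 0.094 to 0.25).

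In DMSO, the Clcf1 level was 0.55 ± 0.16 higher with Jagged1 than with vector cells and did not pass (adjusted p = 0.436, and 0.0549 with the block). The difference was -0.06 ± 0.16 between tumour cells in MRK-003 and -0.43 ± 0.16 between MRK-003 and DMSO in vector co-cultures, neither past the threshold. The interaction was 0.60 ± 0.23 (unadjusted p = 0.0341, adjusted p = 0.999).

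Il11 encodes interleukin-11, which acts through Il11ra1 and Il6st. Its log2 ratios were -0.59 and -0.79 with Jagged1 cells in MRK-003, -0.47 and -0.66 with Jagged1 cells in DMSO, -0.56 and -0.80 with vector cells in MRK-003, and -0.67 and -0.89 with vector cells in DMSO. All 8 arrays lay within 0.42 of each other, and in each group the slide 1 array was the higher. The difference was -0.13 ± 0.14 for MRK-003 in Jagged1 co-cultures (95% interval -0.47 to 0.22) and 0.21 ± 0.14 for Jagged1 in DMSO (95% interval -0.13 to 0.55), neither past the threshold.

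By limma, 2 of the 15 member probes passed for MRK-003 against DMSO with Jagged1 cells, both lower, where 1.62% of all 33060 probes passed in either direction and 0.853% were lower. With the slide as a block 5 member probes passed, 3 lower and 2 higher, where 8.79% of all probes did (3.57% lower and 5.22% higher). For Jagged1 against vector in DMSO none of the 15 passed, where 0.148% of all probes did, and with the block 1 passed, where 3.06% did. The genes had been chosen with the change in Il6 already known, so these counts are a description. In the other 3 comparisons no member passed. There limma called 0 of 33060 probes, with 80 at an unadjusted p under 0.05 for Jagged1 against vector in MRK-003, 1228 for MRK-003 against DMSO with vector cells and 1265 for the interaction, and the block called 0, 1 and 92 probes, or 0%, 0.00302% and 0.278% of them.

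**Figure D2:**
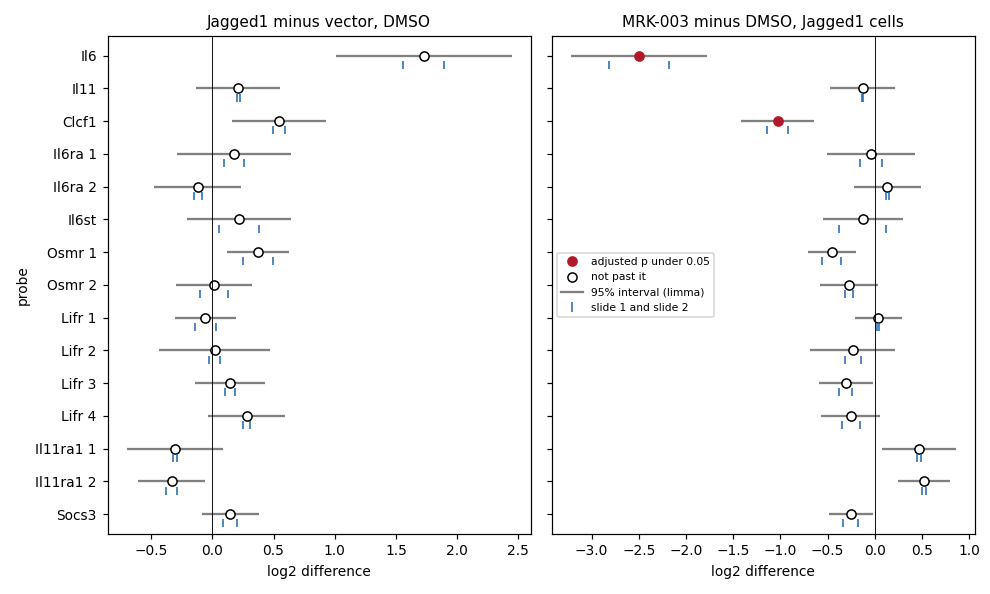
Log2 differences of the 15 member probes for Jagged1 against vector in DMSO (left) and MRK-003 against DMSO with Jagged1 cells (right), with 95% intervals from limma and ticks for each slide. Il6 at -2.50 and Clcf1 at -1.03 in the right panel were the probes past the threshold.

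Among the receptors, Osmr, the chain that with Il6st binds oncostatin M, was highest on the Jagged1 DMSO arrays at 1 of its 2 probes. Osmr probe 1 had log2 ratios of 0.66 and 0.76 with Jagged1 cells in MRK-003, 1.21 and 1.12 with Jagged1 cells in DMSO, 0.71 and 0.82 with vector cells in MRK-003, and 0.72 and 0.86 with vector cells in DMSO. Only its Jagged1 DMSO arrays stood apart. Its difference for MRK-003 in Jagged1 co-cultures was -0.46 ± 0.11 (adjusted p = 0.113), and this passed with the block alone (adjusted p = 0.0305), and for Jagged1 in DMSO it was 0.37 ± 0.11 (adjusted p = 0.408). Osmr probe 2, which lay 1357 bases away, was at -0.27 ± 0.13 and 0.02 ± 0.13 in these comparisons (the second was -0.31 with no upper limit on the local background), so the 2 probes gave different values for Jagged1 in DMSO.

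Il11ra1, the receptor chain specific to interleukin-11, ran the opposite way. Its probe 2 had log2 ratios of 1.69 and 1.82 with Jagged1 cells in MRK-003, 1.19 and 1.28 with Jagged1 cells in DMSO, 1.76 and 1.89 with vector cells in MRK-003, and 1.47 and 1.66 with vector cells in DMSO. The Jagged1 DMSO arrays were the lowest of the 8. The difference for MRK-003 in Jagged1 co-cultures was 0.52 ± 0.11 at probe 2 and 0.47 ± 0.16 at probe 1, which passed with the block (adjusted p = 0.0122 and 0.0164) and not without it (adjusted p = 0.098 and 0.287). For Jagged1 in DMSO the differences were -0.33 ± 0.11 and -0.31 ± 0.16 (adjusted p = 0.552 and 0.775). The files list both probes also for the near-identical gene Il11ra2, so they cannot separate the 2 genes.

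Il6ra encodes the receptor chain specific to IL-6, and Il6st the signalling chain shared by the family. Over all 8 arrays the 2 Il6ra probes ranged from -0.37 to 0.22 and Il6st from -0.34 to 0.12 on the log2 ratio scale, and no group stood apart from all others. For MRK-003 in Jagged1 co-cultures the difference was -0.04 ± 0.19 and 0.13 ± 0.15 at the Il6ra probes and -0.13 ± 0.18 at Il6st, whose 95% interval was -0.55 to 0.30. For Jagged1 in DMSO the differences were 0.18 ± 0.19, -0.12 ± 0.15 and 0.22 ± 0.18. None of these passed, and intervals of this width do not show equal levels.

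Lifr encodes the chain that binds leukaemia inhibitory factor and takes part in the receptors for several of these cytokines. Its probe 4, whose listed position spans 807 bases of the genome, had log2 ratios of 2.38 and 2.42 with Jagged1 cells in MRK-003, 2.73 and 2.58 with Jagged1 cells in DMSO, 2.10 and 2.36 with vector cells in MRK-003, and 2.48 and 2.27 with vector cells in DMSO. The Jagged1 DMSO arrays were the highest. Its difference was -0.25 ± 0.13 for MRK-003 in Jagged1 co-cultures (adjusted p = 0.494) and 0.28 ± 0.13 for Jagged1 in DMSO (adjusted p = 0.734), where it turned to -0.25 with no upper limit on the local background. The other 3 Lifr probes ranged from -0.31 to 0.04 in the MRK-003 comparison and from -0.06 to 0.14 in that of Jagged1, and none passed.

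Socs3, the feedback inhibitor of the pathway, had log2 ratios of 1.16 and 1.13 with Jagged1 cells in MRK-003, 1.34 and 1.47 with Jagged1 cells in DMSO, 1.04 and 1.15 with vector cells in MRK-003, and 1.25 and 1.27 with vector cells in DMSO. The order of the groups was that of Il6 at a much smaller size. The difference was -0.26 ± 0.10 for MRK-003 in Jagged1 co-cultures (95% interval -0.49 to -0.02, adjusted p = 0.331) and 0.14 ± 0.10 for Jagged1 in DMSO (95% interval -0.09 to 0.38, adjusted p = 0.817), and the Jagged1 difference was -0.016 in Cy3 alone. Neither passed, also with the block. On slides 1 and 2 the differences were -0.17 and -0.34 for MRK-003, and 0.09 and 0.20 for Jagged1. The probe was very bright, with mean Cy3 signals of 52454 to 58699 on slide 1 and 26177 to 34538 on slide 2. It was marked as saturated in Cy3 on 0 arrays. Whether signals this bright narrowed its ratios was not tested.

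**Figure D3:**
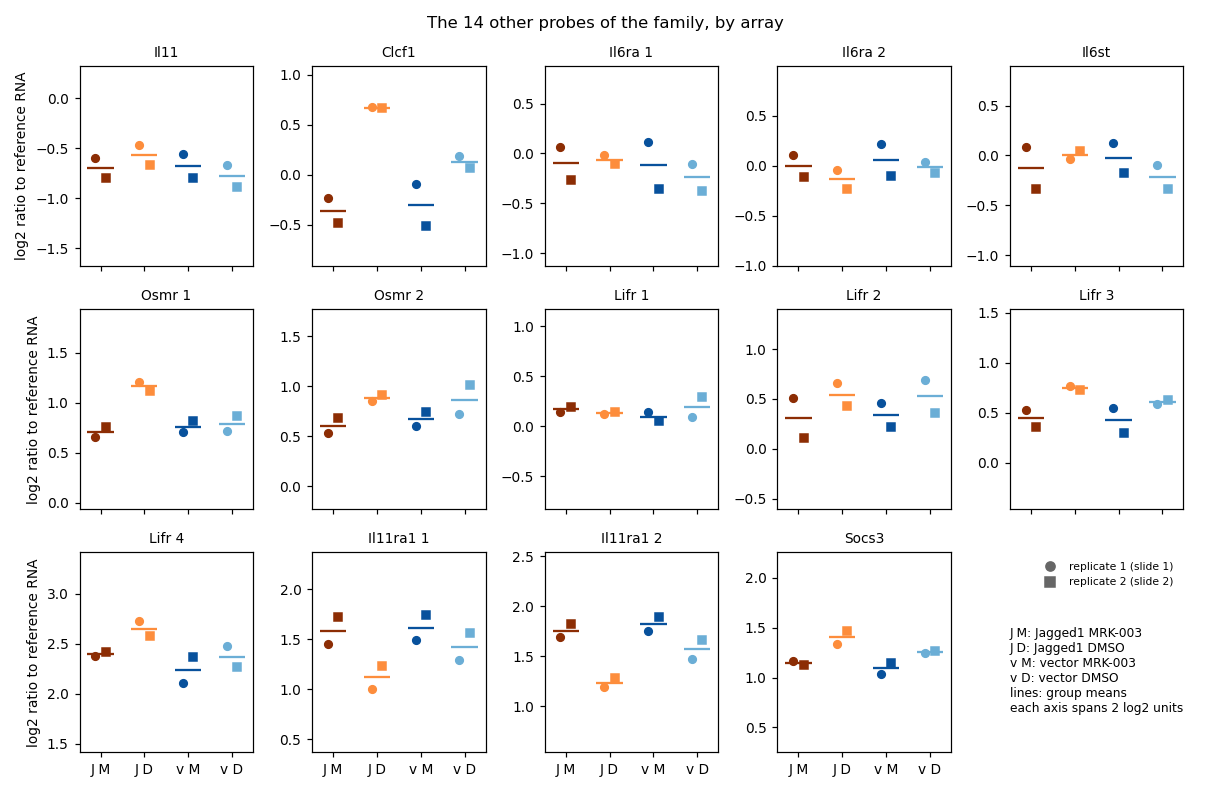
Log2 ratio to the reference RNA on each array for the 14 member probes other than Il6, with groups on the horizontal axis, lines for group means and every vertical axis spanning the same width. Clcf1 was highest on the Jagged1 DMSO arrays at 0.68 and 0.66, and both Il11ra1 probes were lowest there.

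Correlation with Il6 over the 8 arrays is given as a description, since the arrays fall into groups and share slides. Pearson's r was 0.90 for Socs3, 0.89 for Clcf1, 0.37 for Il11 and 0.12 for Il6st. Probes of 1 gene differed, with 0.90 and 0.58 for Osmr probes 1 and 2, -0.15, 0.48, 0.74 and 0.90 for Lifr probes 1 to 4, and 0.06 and -0.54 for the Il6ra probes, whereas the Il11ra1 probes were at -0.83 and -0.94. Over all probes, the 5 named genes most like Il6 were Phlda1, Bicc1, Usp2, Fmnl3 and Magi1, with r of 0.99 to 1.00. They were chosen for this likeness over the same arrays, so the direction of their differences follows from the choice and no test is given. For MRK-003 in Jagged1 co-cultures the log2 difference was -1.73 for Phlda1, -1.66 for the ubiquitin protease Usp2, -0.66 for the formin Fmnl3, -1.01 for the scaffold protein Magi1 and -0.39 for Bicc1, an RNA-binding protein.

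The rest of the pathway was read from 6 lists, with each gene at its brightest tested probe. Of all 33060 probes, 0.148% passed for Jagged1 in DMSO, and 3.06% with the block. The lists were read for MRK-003 against DMSO in Jagged1 co-cultures, where the median over all probes was 0.01. There 1.62% of all probes passed, and 8.79% with the block. Of 10 measured family ligands, 9 were lower and 1 was higher, with a median of -0.12, and Il6 and Clcf1 passed. The non-members nearest to an interaction did not pass. They were Il27 (-0.22), oncostatin M (Osm, -0.07), Ctf2 (-0.12) and ciliary neurotrophic factor (Cntf, 0.25). Of 8 receptor genes, 7 were lower and 1 higher, with a median of -0.10, and none passed. Il6ra and Lifr counted as lower, although Il6ra probe 2 was at 0.13 and Lifr probe 1 at 0.04. The other unused member probes went the same way as the probe used. The CNTF receptor Cntfr was at -0.15, Il27ra at -0.08 and Il31ra at -0.02.

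Of 13 JAK and STAT signal carriers, 1 passed, where 1.62% of all probes did, and the median was -0.12. Gab1, an adaptor that links these receptors to other kinase pathways, fell by 1.05 ± 0.16 (adjusted p = 0.0361), and was at 0.62 for Jagged1 in DMSO (adjusted p = 0.351). Stat5a was at 0.35, Jak2 at 0.18 and Stat6 at 0.03, with adjusted p values of 0.357, 0.786 and 0.949. Of 14 feedback inhibitors, 1 passed, and the median was 0.02. It was Cish, a member of the Socs family induced by STAT5, which fell by 1.13 ± 0.11 (adjusted p = 0.0119). In DMSO the difference in Cish between Jagged1 and vector cells was 0.60 (adjusted p = 0.155, and 0.0235 with the block). Pias1 was at 0.24, Socs6 at 0.10 and Ptpn6 at -0.02, none past the threshold.

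Of 20 STAT3 targets, 8 were higher and 12 lower with a median of -0.15. In differing directions 3 passed, where 1.62% of all probes did. Vegfa, an angiogenic growth factor, fell by 1.39 ± 0.14 (adjusted p = 0.0143) and was at 0.93 for Jagged1 in DMSO (adjusted p = 0.107, and 0.00999 with the block). Junb, an AP-1 subunit, fell by 1.00 ± 0.16 (adjusted p = 0.0399), and was at 0.20 for Jagged1 in DMSO. The cell cycle gene Ccnd1 rose by 0.76 ± 0.12 (adjusted p = 0.0424), and was at -0.50 for Jagged1 in DMSO (adjusted p = 0.311). The iron-binding protein Lcn2 was at 2.09 ± 0.46 (adjusted p = 0.0995, and 0.00809 with the block) and Cebpd at 0.87 ± 0.18 (adjusted p = 0.0792, and 0.00491 with the block).

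Of 19 regulators of Il6 transcription and message decay, 8 were higher and 11 lower with a median of -0.20. Junb and Zfp36, a protein that speeds the decay of cytokine messages, passed, and Zfp36 fell by 0.95 ± 0.15 (adjusted p = 0.039). Zfp36 was at -0.22 for Jagged1 in DMSO (adjusted p = 0.821). The NF-kappaB inhibitor Nfkbia was at -0.51 ± 0.12 (adjusted p = 0.11), and the AP-1 subunits Jun and Fosl1 were at 1.07 ± 0.27 and 0.83 ± 0.15 (adjusted p = 0.143 and 0.0554). These 3 passed with the block (adjusted p = 0.0283, 0.0329 and 0.0147), where 8.79% of all probes did. Rbpj itself was at 0.35 ± 0.23 (adjusted p = 0.618).

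The calls on these non-members changed with the processing and with single arrays left out. Omitting an array left 1 in its group, so a lost call does not show that this array made the difference. With 1 array left out the MRK-003 difference ran -1.15 to -0.94 for Gab1, -1.19 to -1.08 for Cish and -1.51 to -1.28 for Vegfa. It ran -1.16 to -0.84 for Junb, 0.64 to 0.88 for Ccnd1 and -0.99 to -0.91 for Zfp36. Without any 1 of the 4 arrays compared Gab1, Cish, Vegfa, Junb, Ccnd1 and Zfp36 did not pass. Junb and Ccnd1 also did not pass without any 1 vector array, and Zfp36 without either vector MRK-003 array. Of the 12 alternatives that left out no array, Vegfa passed under 12, Cish under 10, Gab1, Junb and Ccnd1 under 8 and Zfp36 under 7. With no upper limit on the local background Vegfa alone of these 6 passed, Cish was at -0.74 (adjusted p = 0.704) and Gab1 had an adjusted p of 0.332. Junb, Ccnd1 and Zfp36 had limma adjusted p values of 0.105, 0.103 and 0.137 there. Across these 6 genes and all alternatives no difference in this comparison changed its sign. Other probe filters, the block and the omission of a vector array could not change it.

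**Figure D4:**
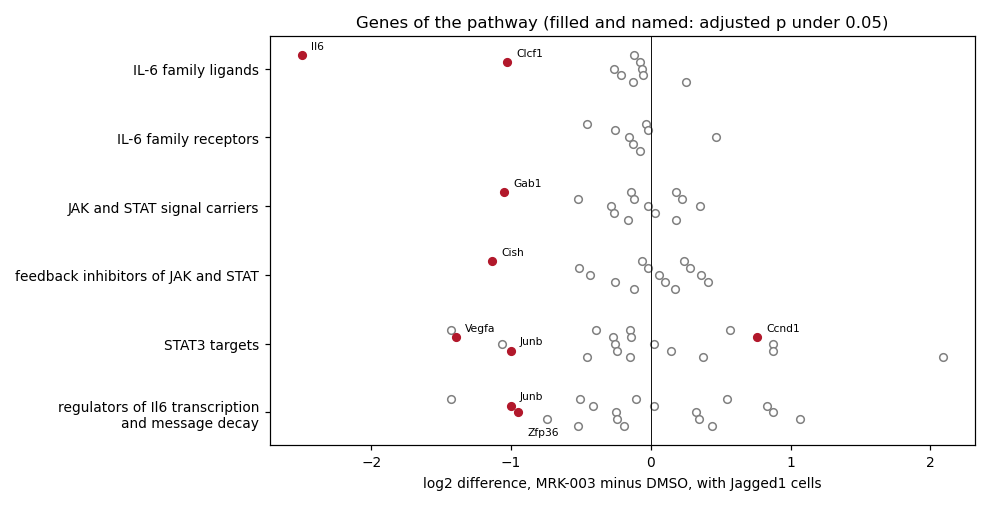
Log2 differences for MRK-003 against DMSO with Jagged1 cells in the 6 pathway lists, filled and named where the adjusted p was under 0.05. Each gene has 1 point per list, so a gene on more than 1 list, such as Junb, is drawn in each. Il6 lay at -2.50, Clcf1, Gab1, Cish, Vegfa, Junb and Zfp36 between -1.39 and -0.95, and Ccnd1 at 0.76.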

How the data were processed

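Agilent mouse arrays were scanned and their spots extracted with Feature Extraction 9.5.3.1, per the file headers, with probe coordinates on build mm7. Mean signal and median local background in each channel were deposited as intensity values with no normalization. The deposited log10 ratio and 0 or 1 marks for outliers and background came from the same software, per the file headers. The authors' deposited table held log2 ratios of the processed signals plus 1 constant per array (100% of probes within 0.02; column medians 0.11 to 0.21).

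Background was corrected by normexp (offset 50) and ratios normalized by loess within arrays. Each spot's local background was first limited to the 99.9th percentile of its array and channel: 3 to 11 spots with extreme local background on 3 arrays, both Jagged1 DMSO arrays and Jagged1 MRK-003 replicate 2 (maximum 2415 to 32904 in Cy3) raised the normexp noise estimate there to 56.9 to 352, against 0.70 to 7.56 on the other arrays. The planned correction had no limit. The limit was added after the files were examined. Values with no limit are given where they change the call of a member or of a gene of the pathway lists, and not for the Notch targets. Outlier spots were dropped (303 probes lost), spots of a probe averaged, and 7811 dim probes removed. Names came from RefSeq for 22951 probes and from the files for 18223.

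limma 3.58.1 in R 4.3.3 fitted 4 group means to 8 arrays, with Benjamini-Hochberg adjusted p under 0.05 in each of 5 comparisons over 33060 probes. The fit was also run on simulated data whose errors were independent between arrays. That run left out shared slides, so it does not bear on their effect. Errors are SE for differences and SD for levels, and 2 arrays per group limit the precision. Replicate 1 and replicate 2 lay on separate slides, per the file headers, and replicate deviations correlated between groups at 0.36 to 0.85. The main fit did not include the slide and so left this pairing out. An alternative fit added the slide as a block, and its values are named as such. Members and gene lists were chosen with earlier results of these data known. Each gene of a list was read at its brightest tested probe. All member probes were named, and from each list the genes that passed and up to 4 with the smallest interaction p; Rbpj was added after its value was seen.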

Additional observations from a re-analysis of the deposited data

How the results depend on the processing

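Each comparison rested on 2 arrays per group, and Il6 and Clcf1 kept their direction under all 20 alternatives in both main comparisons. Part of these could not change a direction. Other probe filters, the block and the omission of an array outside the comparison leave the difference itself as it was. Il6 passed for MRK-003 with Jagged1 cells under 15 of 20 and Clcf1 under 9 of 20. For Jagged1 against vector in DMSO, 49 probes passed over the whole array: 14 with the scanner software's processed signals, 15 in the authors' deposited table, 1013 with the replicate block, 3 with no upper limit on the local background (the planned correction, to which the limit was added after seeing the data) and 0 to 15 with 1 array left out. For MRK-003 with Jagged1 cells 537 passed, against 249 with processed signals, 156 in Cy3 alone, 245 in the authors' deposited table, 2906 with the block, 61 with no limit and 13 to 380 with 1 array left out. For MRK-003 with vector cells 0 passed, against 1 with the block. For the interaction 0 passed, against 2 with median centring, 1 with no filter on dim probes, 4 with 1 probe a gene name, 92 with the block and 0 to 1 with 1 array left out. Of the member probes, 1 passed for Jagged1 in DMSO with the block, and for MRK-003 with Jagged1 cells 1 passed with processed signals, median centring, Cy3 alone or the authors' deposited table, 5 with the block, 0 with no limit and 0 to 2 with 1 array left out. The slide pairs the replicates of all groups, and the block changed no call of a member other than those of Il6, Osmr and Il11ra1.

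Small differences that did not pass changed sign. For Jagged1 against vector in MRK-003, Il6 was at -0.17 with no limit and -0.095 to 0.53 with 1 array left out, and Clcf1 at 0.10 and -0.26 to 0.15. For Jagged1 in DMSO, Osmr probe 2 was at -0.12 in Cy3 alone, -0.31 with no limit and -0.13 to 0.16 with 1 array left out; Lifr probe 1 at 0.011 in Cy3 alone and -0.16 to 0.041 with 1 array left out; Lifr probe 2 at -0.0067 with processed signals, -0.0079 in the authors' deposited table, -0.32 with no limit and -0.14 to 0.18 with 1 array left out; Lifr probes 3 and 4 at -0.21 and -0.25 with no limit; and Socs3 at -0.016 in Cy3 alone. For MRK-003 with Jagged1 cells, Il6ra probe 1 was at 0.18 in Cy3 alone and -0.20 to 0.13 with 1 array left out; Il6st -0.33 to 0.081; Lifr probe 1 at -0.010 with processed signals, -0.030 with median centring, -0.23 in Cy3 alone and -0.010 in the authors' deposited table; and Lifr probe 2 at 0.075 with no limit. There Osm was at 0.064 and Il31ra at 0.10 in Cy3 alone, and with 1 array left out Ctf2 ran -0.27 to 0.036, Il31ra -0.056 to 0.018, Stat6 -0.021 to 0.076, Ptpn6 -0.090 to 0.047 and Socs6 -0.040 to 0.24. The cause of these changes was not tested.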

Other observations

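One probe that the files describe as a mouse leukaemia inhibitory factor cDNA, but do not name Lif, lay on chromosome 11 at 4226323 to 4226382 (build mm7) and was no member. Its log2 ratios were -0.38 and -0.04 with Jagged1 cells in MRK-003, -0.22 and -0.24 with Jagged1 cells in DMSO, -0.19 and -0.19 with vector cells in MRK-003, and -0.26 and -0.21 with vector cells in DMSO. Each pair of groups overlapped in the 2 comparisons that follow, where the difference was 0.02 ± 0.13 for MRK-003 in Jagged1 co-cultures and 0.01 ± 0.13 for Jagged1 in DMSO (SE, n = 2 per group, limma adjusted p = 0.976 and 0.989). The vector MRK-003 and vector DMSO arrays did not overlap, with a difference of 0.05 ± 0.13 (limma adjusted p = 1). Whether it measures Lif was not tested.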
